A study of Homo sapiens with 4 samples.

Results

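Claudins and their partner proteins at the tight junction were followed in 2 human colon cell lines. The 10 genes, CLDN1, CLDN2, CLDN3, CLDN4, CLDN7, CLDN12, CLDN15, OCLN, TJP1 and F11R, were taken from the 64962 rows of the deposited expression table by symbol. The set was chosen on measured values, since CLDN2 had the largest fall with SCS among HT-29 loci at a mean of at least 10 CPM (counts scaled to library size), and the other junction genes were put beside it. The HT-29 changes are therefore given as a description. The 10 genes filled 12 rows, because OCLN and TJP1 were each listed under a pair of identifiers. The second row of each was at 0 in every library, and every gene was above 0 in at least 1 library.

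HT-29 is a cell line from a human colorectal adenocarcinoma, and NCM460 is the line that stands for normal colon in the study. Each was grown without SCS (sturgeon chondroitin sulfate, a glycosaminoglycan of sturgeon cartilage) or with 100 μg/mL SCS for 24 h, and total RNA was sequenced. Each of the 4 conditions is 1 library. No condition has a replicate, so within a comparison of a pair of libraries the condition and its library cannot be told apart. Intervals cover counting error only.

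Tight junctions are the belts of strands near the top of epithelial cells that close the space between neighbours. Claudins are the membrane proteins that form the strands. Some, such as claudin-2 and claudin-15, line channels for small cations between cells, while others tighten the seal. Occludin and the adhesion molecule JAM-A sit in or beside the strands, and ZO-1 ties them to the actin cytoskeleton.

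The libraries held between 1156568 and 1654764 whole fragments, of which the mitochondrial genome took 13.8% to 62.3%. HT-29 cells had 1061700 nuclear fragments without SCS and 1383424 with it, and NCM460 cells 507692 and 621582. Levels are in CPM after TMM scaling, in which 3 fragments are worth 1.47, 1.25, 3.85 and 2.77 in that order. Among 14 colonic epithelium markers, 10 and 8 were above 0 in the HT-29 libraries and 6 in each NCM460 library. KRT8, KRT18, KRT19, EPCAM and CDH1 were present in all 4 libraries. CDX2 was listed at 0 in both HT-29 libraries, and KRT20, VIL1 and LGALS4 were at 0 in both NCM460 libraries. Of the leukocyte markers, PTPRC and CD3E were at 0 throughout, while CD68, a protein of lysosomes, had 473 to 650 fragments in every library and LYZ, for lysozyme, had 603 and 352 in HT-29 cells and 0 in NCM460 cells. The 8 mesenchymal markers summed to 5.87 and 8.74 CPM in HT-29 cells and 118 and 130 CPM in NCM460 cells, of which SPARC held 65 of 92 and 102 of 141 fragments, with COL1A2, COL3A1 and CDH2 at 0. The part of these differences in the junction genes was not tested.

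The sequences below show the start regions of CLDN2, whose fragments all but disappeared with SCS in HT-29 cells, beside those of OCLN and CLDN1, which were higher. They are RefSeq windows on GRCh38.p14 of 300 bases, from 250 before to 50 after an annotated start, written 5′ to 3′ on the strand of the gene, and capitals mark CG dinucleotides. The CLDN2 windows lie at chrX:106899914-106900213 and chrX:106918110-106918409 on the plus strand. The OCLN window lies at chr5:69492297-69492596 on the plus strand, and that of CLDN1 at chr3:190322397-190322696 on the minus strand.
CLDN2 start 1: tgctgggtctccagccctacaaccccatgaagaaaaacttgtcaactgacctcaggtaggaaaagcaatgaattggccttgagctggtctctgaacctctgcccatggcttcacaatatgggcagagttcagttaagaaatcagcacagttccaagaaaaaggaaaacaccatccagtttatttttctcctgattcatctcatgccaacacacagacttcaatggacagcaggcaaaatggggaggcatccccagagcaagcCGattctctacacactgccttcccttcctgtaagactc
CLDN2 start 2: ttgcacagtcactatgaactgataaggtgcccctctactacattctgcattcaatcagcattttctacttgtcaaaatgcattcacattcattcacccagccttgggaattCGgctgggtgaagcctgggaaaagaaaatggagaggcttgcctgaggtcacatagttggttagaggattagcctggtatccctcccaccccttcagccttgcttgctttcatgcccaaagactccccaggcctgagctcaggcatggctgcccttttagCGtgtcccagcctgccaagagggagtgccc
OCLN start 1: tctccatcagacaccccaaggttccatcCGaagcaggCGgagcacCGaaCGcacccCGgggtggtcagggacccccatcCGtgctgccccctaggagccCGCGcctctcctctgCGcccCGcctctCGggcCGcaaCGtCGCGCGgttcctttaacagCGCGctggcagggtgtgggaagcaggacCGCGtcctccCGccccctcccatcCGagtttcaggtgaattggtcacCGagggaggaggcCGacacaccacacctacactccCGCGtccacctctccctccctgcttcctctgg
CLDN1 start: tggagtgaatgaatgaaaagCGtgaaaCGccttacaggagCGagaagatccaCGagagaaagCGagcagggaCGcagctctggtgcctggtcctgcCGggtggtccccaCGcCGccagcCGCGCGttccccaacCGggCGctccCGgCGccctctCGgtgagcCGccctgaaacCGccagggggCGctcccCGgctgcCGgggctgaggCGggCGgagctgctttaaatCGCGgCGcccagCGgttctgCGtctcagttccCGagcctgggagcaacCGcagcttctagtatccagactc

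The CLDN2 windows were poor in CG dinucleotides. The first held 1 and the second 2, and of 35116 windows of this length in RefSeq 3.96% and 10.97% held fewer, with a median of 14. OCLN held 26 in the window shown and CLDN1 held 31. GC content was 47.3% and 51.3% in the CLDN2 windows, 68% in that of OCLN and 67% in that of CLDN1, against a median of 58.7%. Windows were found for 9 of the 10 genes, 15 in all, and the other 7 genes besides CLDN2 and TJP1 had no window with fewer than 5 CG dinucleotides. A single TJP1 window had 3.

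Short words were searched in these windows on both strands. A TATA box was searched as the letters TATAAA, and a word of the CDX factors as the letters TTTATG. An E-box of the kind bound by SNAI and ZEB factors was searched as the letters CAGGTG, and a GC box as the letters GGGCGG. None of these words contains another. Of all windows, 11.5%, 10.6%, 20.6% and 44.95% held them in that order. No match was found in either CLDN2 window, and 10 of the 15 windows held at least 1 match. The CLDN12 window, 1 of CLDN7 and 1 of TJP1 also held none, and these genes were called higher with SCS in HT-29 cells. GC boxes were in windows of CLDN1, CLDN3, CLDN4, CLDN7, CLDN15, OCLN and TJP1, and E-boxes in those of CLDN3, CLDN7, OCLN and TJP1. A match is a run of letters and not a shown site, and no match says only that these letters are not in these windows.

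CLDN2 (ENSG00000165376; chromosome X, 106900164 to 106930861 on GRCh38) encodes claudin-2, a pore-forming claudin of leaky epithelia. HT-29 cells gave 222 fragments of it without SCS and 2 with SCS, and NCM460 cells gave 1 without and 2 with SCS. Only the HT-29 control held more than 3 fragments of it. Its level there was 109 CPM (94.7 to 124), against 0.832 (0.101 to 3.01) with SCS. The plain ratio of these levels was 130-fold, with a counting interval from 35.7-fold to 1083-fold. On the log2 scale with a prior count of 2 the change was -5.71 (-10.08 to -5.16), and it ranged from -6.59 to -4.43 over all other settings. The next largest fall in HT-29 cells was that of CLEC3A, from 372 to 14 fragments. In these bulk samples, fewer cells with a transcript and less of it per cell cannot be told apart.

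CLDN15 (chromosome 7, 101232092 to 101238820), the other pore-forming claudin of the set, was near the limit of detection. Its fragments were 9 and 17 in HT-29 cells without and with SCS, and 3 and 2 in NCM460 cells. The HT-29 change was 0.56 on the log2 scale, with an interval of -0.56 to 2.03 that includes no change. A fall like that of CLDN2 was not seen in it, and smaller changes were not detectable at this depth.

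**Figure D1:**
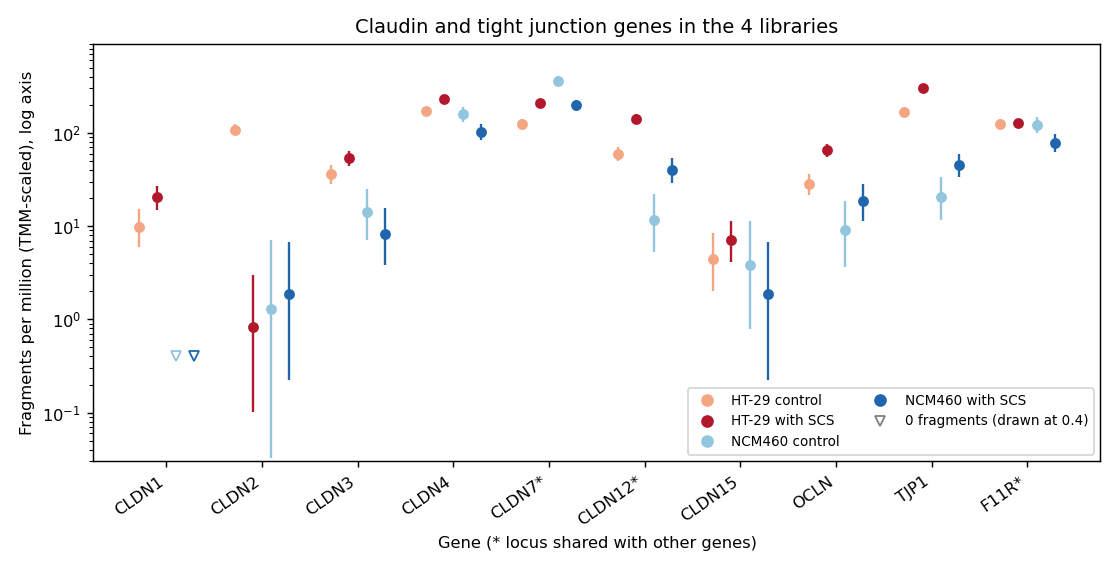
Level of each of the 10 junction genes in the 4 libraries, in CPM on a log axis, with 1 point per library and bars for the exact 95% counting interval. CLDN2 stands at 109 in the HT-29 control and below 2 in the other 3 libraries, while CLDN1 has 0 fragments in both NCM460 libraries (open triangles, drawn at 0.4) and the asterisk marks loci shared with other genes.

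The other junction genes stood level with or above their control in HT-29 cells. A gene was called when its level differed by more than 1.5-fold and its counting interval excluded no change. By this rule 31.5% of all 12168 loci compared in HT-29 cells were called, 16.8% higher and 14.8% lower with SCS. Of the 10 junction genes, 5 were called higher (CLDN1, CLDN7, CLDN12, OCLN and TJP1), CLDN2 alone was called lower and 4 were not called. Since this contrast chose the set, nothing is read from these counts. Without CLDN2 the log2 changes of the 9 other genes ran from 0.03 to 1.24 with a median of 0.72, and all 9 were above 0, with F11R below 0 by nuclear totals (-0.12), after thinning (-0.16) and with the expression trend subtracted (-0.01). CLDN1 was no longer called after thinning (0.75), nor CLDN7 by nuclear totals (0.57). The median over all loci was 0.07, and 53.4% of loci were above 0.

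CLDN1 (chromosome 3, 190305701 to 190322475), a claudin needed for a tight epidermal barrier, gave 20 fragments without SCS and 49 with it in HT-29 cells. Its level went from 9.78 to 20.4 CPM, a log2 change of 0.97 (0.28 to 1.89). In NCM460 cells it had 0 fragments in both libraries, where 3 fragments, taken as the limit that a count of 0 allows, are worth 3.85 CPM in the control and 2.77 CPM with SCS. The upper ends of the exact 95% intervals of those counts were 4.74 and 3.41 CPM.

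CLDN3 (chromosome 7, 73768997 to 73770270) and CLDN4 (chromosome 7, 73799542 to 73832693) are neighbouring claudin genes whose proteins tighten epithelial sheets. CLDN3 had 74 and 128 fragments in HT-29 cells without and with SCS, a log2 change of 0.54 (0.13 to 0.99). CLDN4 had 352 and 562, a log2 change of 0.44 (0.25 to 0.64). The intervals of both lay above 0, and both values fell short of 1.5-fold, with CLDN3 just outside at 1.46-fold. CLDN3 was called higher by total counts (0.82) and after thinning (0.77), and CLDN4 by total counts (0.72). In NCM460 cells CLDN3 had 11 and 9 fragments and CLDN4 had 123 and 111.

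CLDN7 (chromosome 17, 7259903 to 7263983), a claudin along the sides of intestinal cells, was just inside the threshold in HT-29 cells. Its 258 fragments without SCS became 501 with SCS, a log2 change of 0.72 (0.51 to 0.95), or 1.65-fold. In NCM460 cells it had 282 and 216. The table gives the same values for CTDNEP1, GABARAP and 3 further overlapping genes, so the share of CLDN7 in them is uncertain.

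CLDN12 (chromosome 7, 90383721 to 90513402) encodes a claudin that lacks the tail motif by which most claudins bind ZO proteins. It had 122 and 343 fragments in HT-29 cells, against 9 and 43 in NCM460 cells. The log2 change was 1.24 (0.96 to 1.57) in HT-29 cells, the largest rise of the set in that line. The value is shared with CDK14, GTPBP10 and 2 further genes of the locus and is as uncertain as that of CLDN7.

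OCLN encodes occludin, a membrane protein of the strands. It had 58 and 157 fragments in HT-29 cells without and with SCS, and 7 and 20 in NCM460 cells. The level in HT-29 cells went from 28.3 to 65.3 CPM, a log2 change of 1.17 (0.76 to 1.67). The row above 0 carries the identifier ENSG00000273814 on an alternate contig of chromosome 5, from 69492007 to 69556424.

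TJP1 encodes ZO-1, the scaffold under the strands, and was the most abundant of the set by fragments in HT-29 cells with SCS. It had 343 and 731 fragments in HT-29 cells, against 16 and 49 in NCM460 cells. The log2 change in HT-29 cells was 0.85 (0.67 to 1.05). Its row above 0 is ENSG00000277401 on an alternate contig of chromosome 15, from 29850002 to 29972346. F11R (chromosome 1, 160995211 to 161021348) encodes JAM-A, an immunoglobulin-type adhesion molecule. It had 255 and 305 fragments in HT-29 cells, a log2 change of 0.03 (-0.22 to 0.27), and 95 and 85 in NCM460 cells. The F11R locus is shared with TSTD1 and 1 further gene.

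Ratios between genes of one library do not depend on how the libraries are scaled. In the HT-29 control there were 1.59 CLDN4 fragments and 1.55 TJP1 fragments for each CLDN2 fragment. With SCS there were 281 and 365.5. The ratio of CLDN2 to each of the other 9 genes was lower with SCS by between 132-fold (35.5 to 1110), against F11R, and 310-fold (82.4 to 2611), against CLDN12. The lowest limit of these 9 intervals was 35.5-fold.

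CLDN2 made up 21.0% of the fragments of the 7 claudins in the HT-29 control (exact interval 18.6% to 23.6%) and 0.125% with SCS (0.0151% to 0.450%). Over the 5 claudins whose loci hold no other gene the shares were 32.8% and 0.264%. In NCM460 cells CLDN2 held 0.233% (0.00590% to 1.29%) of the fragments of 7 claudins without SCS and 0.522% (0.0633% to 1.87%) with it. The HT-29 library with SCS and both NCM460 libraries thus had overlapping intervals for this share, and the HT-29 control stood above all of them.

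The deposited FPKM values, which are per transcript length, give the order of the genes within a library. In the HT-29 control the order was CLDN4 (124.8), CLDN7 (96.9), F11R (49.4), CLDN3 (31.9), CLDN2 (30.3), TJP1 (21.6), CLDN12 (16.0), OCLN (9.09), CLDN1 (2.95) and CLDN15 (2.56). Of neighbours in this order, CLDN3 and CLDN2 overlapped in their counting intervals, as did CLDN1 and CLDN15, and the others did not. With SCS, CLDN2 went from rank 5 to rank 10 at 0.216 FPKM. CLDN4 and CLDN7 kept ranks 1 and 2 at 154 and 152 FPKM, with overlapping intervals. In both NCM460 libraries CLDN7 came first (320 and 174 FPKM) and CLDN4 second (104 and 62.8 FPKM), with an interval that overlapped that of F11R (97.7 and 61.4 FPKM). The values of CLDN7, CLDN12 and F11R belong to loci shared with other genes, so their own ranks are uncertain.

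**Figure D2:**
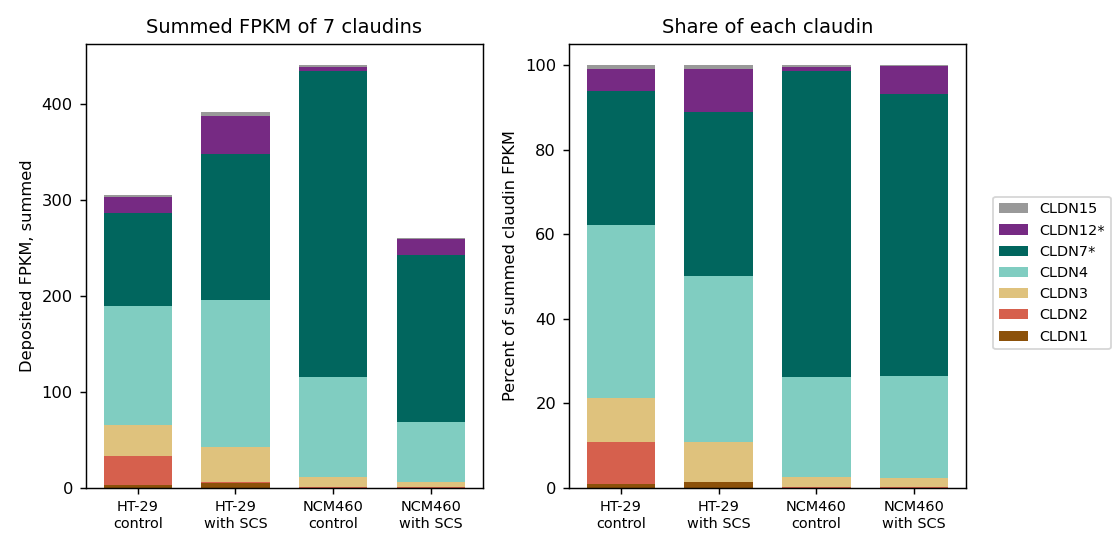
Deposited FPKM of 7 claudins in each library, summed on the left and as a percent of the sum on the right, with 1 colour per claudin and an asterisk for loci shared with other genes. CLDN2 takes 9.92% of the sum in the HT-29 control and 0.0551% with SCS, while CLDN7 takes 72.6% and 66.7% in the NCM460 libraries.

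The summed claudin FPKM was 305 in the HT-29 control and 391 with SCS, so the sum was larger although CLDN2 had dropped out of it. CLDN12 went from 5.23% to 10.2% of the sum (16.0 to 39.7 FPKM), and CLDN7 from 31.7% to 38.8% (96.9 to 152 FPKM). Both values belong to loci shared with other genes, so the claudin part of the larger sum is uncertain. Among claudins with loci of their own the largest changes were CLDN4, from 124.8 to 154 FPKM, and CLDN2, from 30.3 to 0.216 FPKM. In NCM460 cells the sum was 441 without SCS and 261 with it, of which the shared CLDN7 locus held 320 and 174. CLDN4 held 23.7% and 24.1% of those sums.

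NCM460 cells had junction genes on both sides of their control, in an order that went with the base composition of their loci. Of 12657 loci compared, 29.2% were called, 15.4% higher and 13.8% lower with SCS. Among the 9 junction genes compared, CLDN12 and TJP1 were called higher, CLDN4, CLDN7 and F11R were called lower and 4 were not called. CLDN12 changed by 1.68 on the log2 scale (0.73 to 3.005) and TJP1 by 1.09 (0.30 to 2.05). CLDN4 changed by -0.62 (-1.01 to -0.24), CLDN7 by -0.85 (-1.12 to -0.60) and F11R by -0.63 (-1.07 to -0.20), but by total counts CLDN4 stood at 0.0717 and F11R at 0.0592. OCLN was at 0.95 with an interval of -0.26 to 2.53, and CLDN3 at -0.68 with an interval of -2.21 to 0.65.

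**Figure D3:**
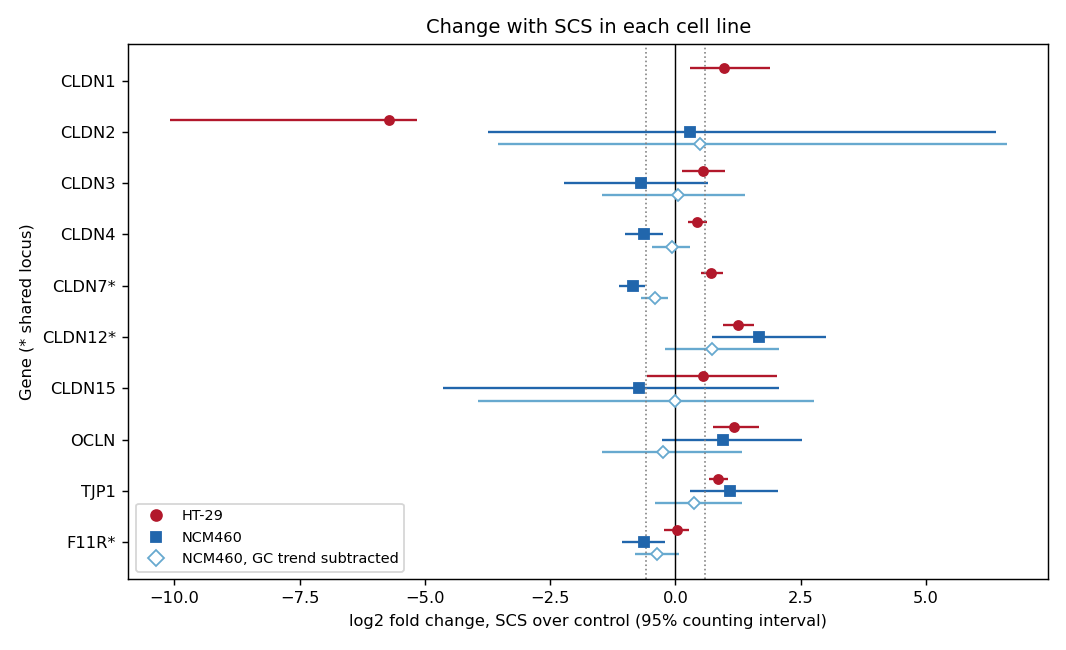
Log2 fold change of SCS over control for each junction gene, with bars for the 95% counting interval and dotted lines at 1.5-fold in either direction. In HT-29 cells (red circles) CLDN2 is at -5.71 and the 9 other genes lie between 0.03 and 1.24, while in NCM460 cells (blue squares) the genes lie on both sides of 0 and all but CLDN2 come nearer to it once the GC trend is subtracted (open diamonds).

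Transcripts of high GC content were lower with SCS in NCM460 cells and those of low GC content higher. Across 12600 loci Spearman's rho between GC content and the log2 change was -0.63 in NCM460 cells, and across 12106 loci it was -0.12 in HT-29 cells. Loci are not independent replicates. The higher members CLDN12 (42.9% GC) and TJP1 (44.999%) had a lower GC content than the lower members F11R (53.3%), CLDN7 (55.8%) and CLDN4 (57.5%). For CLDN12, F11R and CLDN7 these are means over the genes of a shared locus. By their own transcripts CLDN12 was at 47.2%, F11R at 47.7% and CLDN7 at 59.1%. Of the genes not called, CLDN3 (69.2%) and CLDN15 (63.4%) had the highest GC content of the set and OCLN (39.9%) the lowest. With a smooth GC trend subtracted, none of the 9 genes was called, beside 12.4% of all loci. The values were then 0.74 (-0.21 to 2.06) for CLDN12, 0.38 (-0.41 to 1.34) for TJP1, -0.08 (-0.47 to 0.30) for CLDN4, -0.41 (-0.68 to -0.15) for CLDN7 and -0.36 (-0.80 to 0.07) for F11R. In HT-29 cells the same step left CLDN2 at -5.67, OCLN at 0.93 and CLDN12 at 1.07. The part of GC content in the changes was not tested.

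**Figure D4:**
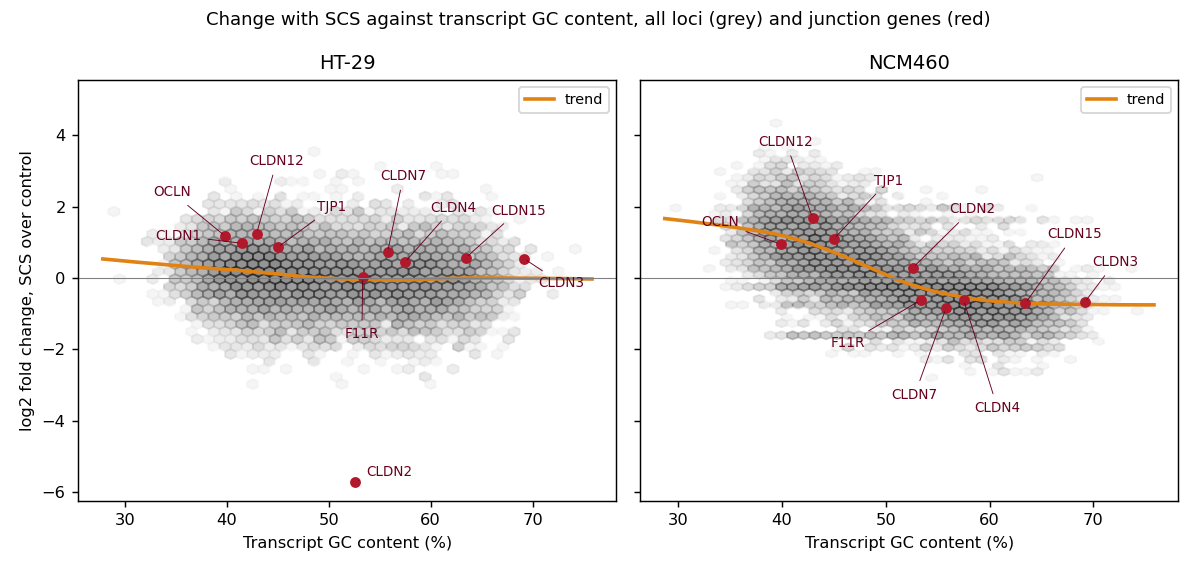
Log2 fold change of SCS over control against transcript GC content in percent, for all loci (grey, darker where more loci fall) with the smooth trend in orange and the junction genes in red. In NCM460 cells the junction genes follow the falling trend, and in HT-29 cells the trend is nearly flat and CLDN2 lies alone at -5.71.

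The SCS change was set side by side between the lines as a ratio of folds, HT-29 over NCM460. For CLDN2 the log2 ratio was -7.20 (-13.44 to -2.54), which rests on 1 and 2 fragments in NCM460 cells. For CLDN7 it was 1.58 (1.24 to 1.93), for CLDN4 1.06 (0.63 to 1.497) and for F11R 0.66 (0.15 to 1.17). With the GC trend subtracted these 3 were 1.199 (0.85 to 1.54), 0.58 (0.15 to 1.01) and 0.43 (-0.07 to 0.94). The intervals for CLDN3, CLDN12, CLDN15, OCLN and TJP1 included 0. These intervals hold no spread between cultures, and the difference between the lines was not tested.

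Without SCS, HT-29 cells held more of most junction genes than NCM460 cells. In this comparison 48.4% of 12691 loci were called, 25.3% higher and 23.1% lower in HT-29 cells. Of the 10 genes, CLDN1, CLDN2, CLDN3, CLDN12, OCLN and TJP1 were called higher in HT-29 cells, and CLDN7 was called lower. CLDN2, with 222 against 1 fragment, was 84.5-fold higher by the plain ratio (15.0 to 3353). Its HT-29 control level is among the values that chose the set. CLDN1, with 20 against 0, was at least 2.54-fold higher when 3 fragments were set for the NCM460 library, and its counting interval began at 0.91 on the log2 scale. TJP1 was higher by 2.95 on the log2 scale (2.31 to 3.85), CLDN12 by 2.25 (1.40 to 3.53), OCLN by 1.53 (0.52 to 3.03) and CLDN3 by 1.28 (0.43 to 2.42).

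CLDN4, F11R and CLDN15 were not called between the untreated lines. Their log2 differences were 0.12 (-0.18 to 0.43), 0.03 (-0.31 to 0.39) and 0.15 (-1.81 to 2.71). CLDN7 was lower in HT-29 cells, at -1.51 (-1.77 to -1.27), and was not called by total counts (-0.42). GC content and this line difference were related too, with a Spearman's rho of -0.50 across 12648 loci. With the GC trend subtracted, OCLN (0.17) and CLDN1 (1.89) were no longer called and CLDN4 was called higher (0.703, 0.404 to 1.01), and CLDN3 was not called after thinning (0.88). By total counts CLDN4 (1.21) and F11R (1.11) were called higher in HT-29 cells, and by FPKM, on the fold alone, F11R was called lower (-0.98).

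With SCS in both lines, 46.6% of 13050 loci were called, 24.2% higher and 22.4% lower in HT-29 cells. Of the junction genes, 7 were called higher in HT-29 cells and 0 lower, with CLDN2, CLDN7 and CLDN15 not called. CLDN2 stood at 2 fragments in each line. CLDN1, with 49 against 0 fragments, was at least 7.35-fold higher when 3 fragments were set for the NCM460 library (5.98-fold with the GC trend subtracted), and its counting interval began at 2.53 on the log2 scale. TJP1 was higher by 2.71 (2.33 to 3.20), CLDN3 by 2.51 (1.71 to 3.84), CLDN12 by 1.81 (1.38 to 2.34), OCLN by 1.75 (1.145 to 2.57), CLDN4 by 1.18 (0.89 to 1.495) and F11R by 0.68 (0.34 to 1.06). F11R was not called after thinning (0.41), by FPKM (0.17) or with the expression trend subtracted (0.38). CLDN15 was called higher by total counts (1.94), by FPKM (2.08) and with the GC trend (1.69) or the expression trend (1.66) subtracted. CLDN7 was called higher by total counts (0.74). A call by FPKM rests on the fold alone, without a counting interval. By it CLDN2 was called lower (-0.999), at 2 fragments in each line and a counting interval of -4.94 to 2.63. The comparisons with and without SCS share no library with each other but share one each with the comparisons within a line. Here rho with GC content was -0.15 across 12988 loci.

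Because both lines were grown with and without SCS, a model with an additive term for line and for SCS could be fitted over all 4 libraries, with 1 residual degree of freedom. It treats any difference of the SCS change between the lines as error. For the line term, 16.2% of 12942 loci passed an adjusted p of 0.05 by edgeR's quasi-likelihood test and 6.76% by DESeq2. DESeq2 gave no adjusted p for 2760 of these loci. Of the junction genes, CLDN1, CLDN2, CLDN3, CLDN12 and TJP1 were higher in HT-29 cells by edgeR, and of these CLDN12 and TJP1 by DESeq2. CLDN2 was chosen on its HT-29 values, so nothing is read from its passing, and with SCS it stood at 2 fragments in each line. TJP1 was higher by 2.87 on the log2 scale by edgeR (adjusted p = 5.28e-05) and by 2.80 by DESeq2 (adjusted p = 3.37e-05), and it was higher in HT-29 cells both without and with SCS. CLDN12 was higher by 2.07 by edgeR (adjusted p = 0.00957) and by 2.0004 by DESeq2 (adjusted p = 0.0495). Its locus is shared with other genes. OCLN, at 1.74, had an adjusted p of 0.0604 by edgeR. The fit did not take GC content into account. With the GC trend subtracted, the line difference without SCS went from 2.95 to 2.15 for TJP1 and from 2.25 to 1.18 for CLDN12. With SCS it went from 2.71 to 2.56 and from 1.81 to 1.58. Both genes were still called in these comparisons.

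For the SCS term, 0.0695% of loci passed by edgeR and 0.27% by DESeq2, which gave no adjusted p for 11542 of the 12942 loci. CLDN2 was the 1 junction gene that passed by edgeR. It was chosen for its fall in HT-29 cells, so nothing is read from its passing and no p is given for it. DESeq2 gave no adjusted p for CLDN2 or 5 other junction genes, and the remaining 4 did not pass. CLDN12 (1.47), OCLN (1.136) and TJP1 (0.98) did not pass by edgeR, with adjusted p of 0.758, 0.949 and 0.941.

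The genes whose levels over the 4 libraries were most like those of CLDN2 were TNS4, F2R, GDA, TSPAN8 and DTX4. Likeness was the Euclidean distance between log2 levels centred on each gene, over 7799 loci, and these had distances of 2.15, 2.32, 2.35, 2.39 and 2.43. TNS4, a focal adhesion protein, had 599 and 56 fragments in HT-29 cells, against 40 and 30 in NCM460 cells. F2R, the thrombin receptor, had 167 and 11 in HT-29 cells, against 9 and 18 in NCM460 cells. TSPAN8, a tetraspanin, had 94 and 12 in HT-29 cells and 0 in both NCM460 libraries. The falls of these 5 in HT-29 cells lay between -3.83 and -2.28 on the log2 scale, smaller than that of CLDN2.

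The genes around CLDN2 on chromosome X had smaller changes in both directions. MORC4, which overlaps the CLDN2 span, had 92 and 48 fragments in HT-29 cells, a log2 change of -1.12 (-1.71 to -0.65), and was called lower. TBC1D8B had 16 and 38 and was called higher, at 0.91 (0.14 to 1.96). RNF128 had 49 and 38, RBM41 15 and 30, and NUP62CL 23 and 27, and these 3 were not called.

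The remaining claudins were scarce. Of 18 other claudin and claudin-domain genes, 10 were not above 0 in any library. CLDN9 had 6 and 2 fragments in HT-29 cells and CLDN23 had 4 and 3, and neither was called. The claudin-domain genes CLDND1 and CLDND2 had more, in loci shared with CPOX and ETFB. CLDND1 had 51 and 96 fragments in HT-29 cells (0.65, 0.18 to 1.20) and 56 and 174 in NCM460 cells (1.15, 0.72 to 1.62). CLDND2 had 191 and 147 in HT-29 cells (-0.60, -0.93 to -0.29) and 44 and 53 in NCM460 cells, where it was not called.

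Other parts of the tight junction were called about as often as loci in general in HT-29 cells. Of 27 loci compared, 4 were called higher and 5 lower, beside 16.8% and 14.8% of all loci, with a median log2 change of 0.04 beside 0.07 over all loci. PRKCI and PRKCZ, the atypical protein kinases of the polarity complex, were among the higher, at 0.70 (0.42 to 1.01) and 0.66 (0.07 to 1.35). TJAP1, a junction-associated protein, was the highest at 0.71 (0.08 to 1.49), from 27 to 54 fragments, and RAB13, a small GTPase of junction traffic, was at 0.64 (0.09 to 1.27). The scaffold MAGI3 was the lowest at a mean of at least 5 CPM, from 69 to 37 fragments (-1.07, -1.75 to -0.53). CGN (-0.86, -1.48 to -0.34) and MAGI1 (-1.03, -1.75 to -0.47) were also called lower. So were 2 scarcer genes, JAM3 from 13 to 2 fragments (-1.86, -6.12 to -0.79) and AMOT from 11 to 3 (-1.40, -4.59 to -0.19).

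In NCM460 cells 6 of 26 other tight junction loci were called higher and 4 lower, beside 15.4% and 13.8% of all loci. With the GC trend subtracted 4 and 1 were called, beside 12.4% of all loci in either direction. MPP5, a polarity scaffold, had 1 and 17 fragments (2.73, 0.94 to 8.999), CXADR, an adhesion molecule and virus receptor, 3 and 26 (2.31, 0.94 to 5.01), and PARD6B, a polarity adaptor, 5 and 33 (2.05, 0.88 to 3.96). PRKCZ had 41 and 16 (-1.75, -2.76 to -0.97). The directions of PRKCZ thus differed between the lines, and this difference was not tested.

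Adherens junctions and desmosomes are the adhesion belts and spots below the tight junction. Of 10 adherens junction loci in HT-29 cells, 2 were called higher and 2 lower, beside the 31.5% of all loci called there in either direction. CDH1, the E-cadherin gene, had 267 and 526 fragments (0.74, 0.53 to 0.96). The nectin genes PVRL4 and PVRL1 were the highest and the lowest, with 14 and 75 fragments (2.002, 1.35 to 3.13) and with 152 and 77 (-1.18, -1.63 to -0.81). In NCM460 cells, where 29.2% of all loci were called, 3 of 10 were called higher and 3 lower, with PVRL3 highest, at 20 and 95 fragments (1.73, 1.07 to 2.55), and PVRL1 lowest, at 47 and 21 (-1.57, -2.45 to -0.87). With the GC trend subtracted the counts were the same, but PVRL3 was at 0.81, below MLLT4 for afadin at 0.93, and PVRL1 at -0.93.

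Of 10 desmosome loci in HT-29 cells, 2 were called higher and 3 lower, beside the same 31.5%. The desmosomal cadherin gene DSC2 had 29 and 100 fragments (1.47, 0.95 to 2.20) and EVPL, for envoplakin, 93 and 48 (-1.137, -1.72 to -0.67). In NCM460 cells 3 of 11 were called higher and 3 lower, beside 29.2% of all loci. DSG2 had 17 and 99 there (2.01, 1.32 to 2.90), DSC2 had 5 and 29 (1.87, 0.68 to 3.79) and EVPL 55 and 28 (-1.40, -2.16 to -0.77). With the GC trend subtracted, 1 was called higher and 2 lower, beside 12.4% of all loci.

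Of 16 factors described as acting on intestinal claudins, 0 were called higher and 5 lower in HT-29 cells, beside 16.8% and 14.8% of all loci, with a median of 0.02. The share called in either direction was near that of all loci. Among the 5, HNF4A, a nuclear receptor of gut and liver, had 18 and 7 fragments (-1.27, -3.10 to -0.27), TCF7L2, a WNT pathway factor, 140 and 91 (-0.83, -1.25 to -0.46), and MYLK, the myosin light chain kinase, 53 and 24 (-1.27, -2.14 to -0.65). The epithelial factor OVOL1 had the highest change among the regulators with at least 5 CPM, with 13 and 29 fragments (0.81, -0.06 to 1.99), and was not called.

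In NCM460 cells HNF4A had 0 and 2 fragments. Of 15 regulators compared there, 1 was called higher and 1 lower, beside 15.4% and 13.8% of all loci. SP1, which binds GC boxes, was called higher, with 41 and 122 fragments (1.08, 0.58 to 1.65). ELF3, an epithelial factor, was called lower, with 95 and 63 (-1.05, -1.55 to -0.59), but not with the GC trend subtracted (-0.56). CDX2, a factor of intestinal identity, had 14 and 12 fragments in NCM460 cells and was not called.

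**Figure D5:**
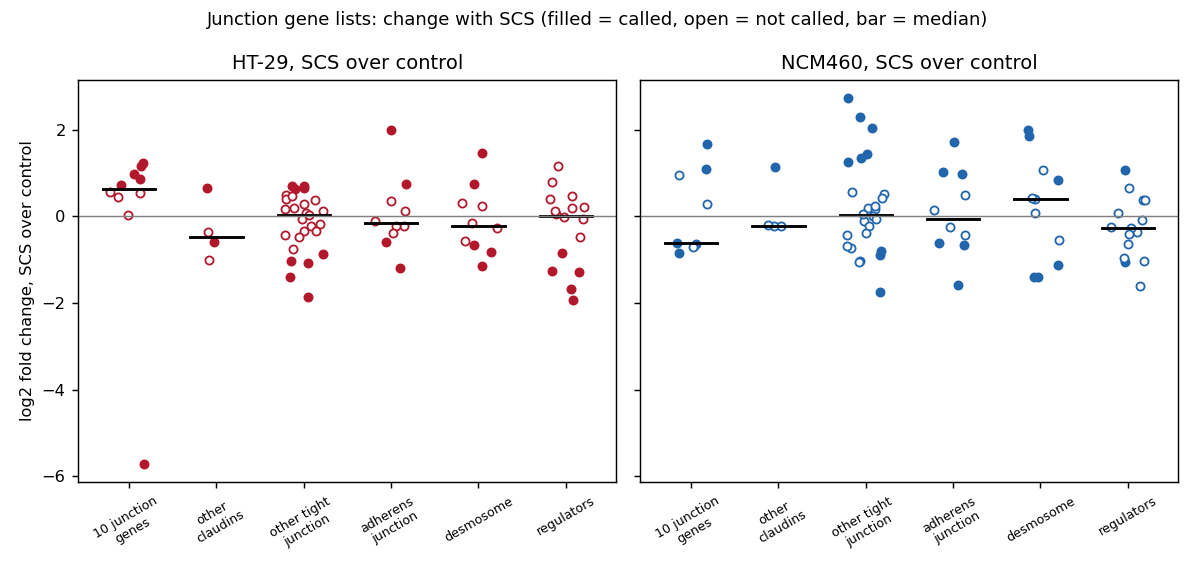
Log2 fold change of SCS over control for the loci of each junction gene list in HT-29 cells (left) and NCM460 cells (right), where filled points were called, open points were not and bars mark medians. CLDN2 lies at -5.71 in the left panel, away from every other locus of the 6 lists, and the medians of the other 5 lists there lie between -0.48 and 0.04.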

How the data were processed

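Total RNA of HT-29 and NCM460 cells, 1 library per condition, was read from a single table. The labels and the study's methods name NEBNext Ultra libraries, paired-end Illumina reads, removal of adapters and low-quality reads, and Cuffdiff. The submitters' processing notes name bcl2fastq 2.17.1.14, cutadapt 1.9.1, Bowtie2, HTSeq 0.6.1 and hg19, while the table's coordinates are those of GRCh38 (93.4% of rows had the start and end of GENCODE 29, and so had 8 of the 10 genes).

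The count columns the authors deposited are a signal, namely whole fragments over a library's size factor, and the FPKM columns the authors deposited are per kilobase of transcript and scaled to library size. The design had assumed whole counts. When expressed in units of 1 fragment, at least 99.9% of values above 0 were whole (within 0.1). Rows without a gene name (26, at most 0.0352% of fragments) were left out. Adjacent rows with identical values were merged into 18650 loci, 1812 of them with more than 1 gene.

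Levels are CPM with edgeR 4.0.16 TMM factors over all 4 libraries (1.24, 1.50, 0.578 and 0.935), in R 4.3.3, and log2 changes use a prior count of 2. All genes averaging 1 CPM or more in a comparison were compared. The 95% intervals (exact Clopper-Pearson on the split of fragments, Poisson for levels) cover counting error only. A pair of libraries alone leaves no residual degree of freedom for edgeR or DESeq2, so these calls carry no p-value. An additive model of line and SCS over the 4 libraries, with 1 residual degree of freedom, was added after seeing the data and fitted to the recovered fragments by edgeR's quasi-likelihood test and by DESeq2 (Benjamini-Hochberg adjusted p below 0.05). For SCS it called 9 of 12942 loci by edgeR and 35 by DESeq2, and for line 2099 and 875. The residual of this model is the difference of the SCS change between the lines, so its p-values hold no spread between replicate cultures. GC trends were lowess fits (span 0.3) on median transcript GC content from GENCODE 29, averaged over the genes of a shared locus. The steps were tested on simulated data.

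The genes and lists were chosen with earlier results of these data known. From each list and line the highest and lowest gene at a mean of at least 5 CPM are named, with any called past a log2 change of 1.5, and the 5 loci nearest to CLDN2 at a mean of at least 10 CPM. Some of these genes are not reported here. CDH1, PRKCI, RAB13, CGN, MAGI1, JAM3, AMOT, CLDN9, CLDN23, HNF4A, TCF7L2, MYLK, CDX2 and the neighbours on chromosome X were named after their values were seen. Old symbols were used as the table lists them (PVRL1 for NECTIN1, MPP5 for PALS1). Alternatives were DESeq2 1.42.0 size factors, total and nuclear counts, the authors' scaling, FPKM with a pseudocount of 0.1 and a prior count of 0.5. Further ones were trends on GC content or expression, thinning to 507692 nuclear fragments, other filters and a 2-fold threshold. Calls by FPKM used the fold alone, without a counting interval.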

Additional observations from a re-analysis of the deposited data

Results flagged for a closer look

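CLDN7 stood out among the 10 junction genes because it was called higher with SCS in HT-29 cells and lower in NCM460 cells. It had 258 and 501 fragments in HT-29 cells, against 282 and 216 in NCM460 cells, and the log2 ratio of the folds was 1.58, or 1.199 with the GC trend subtracted. The difference was not tested. The value belongs to a locus shared with GABARAP, CTDNEP1 and 3 further genes. The NCM460 call was lost by total counts (-0.16) and with the GC trend (-0.41) or the expression trend (-0.54) subtracted. The HT-29 call was lost by nuclear totals (0.57).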

How the results depend on the processing

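With 1 library per condition, no replicate could be left out. The additive fit of line and SCS was added after seeing the data and holds no replicate of any condition. Its residual is the difference of the SCS change between the lines. Its SCS term is 1 change fitted over both lines, so opposite changes offset each other in it. CLDN7 was at -0.06 by edgeR, beside 0.72 in HT-29 cells and -0.85 in NCM460 cells. The term is thus not a recomputation of the 5 and 1 called in HT-29 cells or the 2 and 3 in NCM460 cells. By edgeR it called 0 junction genes higher with SCS and 1 lower (CLDN2, which was chosen for its fall). It called 9 of all loci, and 695 had an unadjusted p below 0.05. By DESeq2, 35 loci were called and 230 had such a p, and 6 of the 10 genes had no adjusted p. Between the lines the additive fit called 5 genes higher by edgeR, CLDN2 among them, and 2 by DESeq2, and 0 lower. Of 351 values recomputed, 314 stayed inside the counting interval and 37 moved outside it. In 18 the sign changed, 2 of them values that had been called, and 313 calls were kept, 22 lost and 16 gained. CLDN2 in HT-29 cells was called lower under every setting, and its log2 change was -4.43 after thinning, where fewer fragments are left. Since this fall chose the set, nothing is read from these calls. The 5 genes higher in HT-29 cells became 7 by total counts, 4 by nuclear totals and 2 at a 2-fold threshold. They became 3 among genes with a locus of their own, a setting chosen after seeing the data. In NCM460 cells the 3 lower genes became 0 by total counts, with the GC trend or the expression trend subtracted, and at 2-fold. They became 1 by nuclear totals and among genes with a locus of their own, and 5 by FPKM. A call by FPKM rests on the fold alone, and the counting intervals of CLDN3 and CLDN15, which it adds in this line, include 0. The 2 higher there became 0 with the GC trend subtracted and 1 among genes with a locus of their own. By total counts, a scaling that moves the all-locus median by 0.54, CLDN4 was at 0.0717 and F11R at 0.0592. Between untreated lines the 1 lower gene became 0 by total counts and with own loci, and 2 by FPKM. With SCS the 0 lower became 1 by FPKM. The cause of these moves was not tested. The HT-29 libraries, with more nuclear fragments, resolve smaller changes than those of NCM460 cells.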
